A study of Mus musculus with 8 samples.

Results

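The cells described here are intestinal fibroblasts, the matrix-producing cells of the connective tissue under the epithelium, found by RNA content in single-cell libraries of mouse small and large intestine. A cell barcode was kept when it had at least 500 detected genes and at most 20% of its unique molecular identifiers (UMIs, counted RNA molecules) on mitochondrial genes. It was called a fibroblast when F, the summed UMIs of Dcn, Col3a1 and Col1a2, was at least 10 and exceeded M, the summed UMIs of the muscle and pericyte genes Myh11, Acta2, Rgs5 and Des. This gave 474 fibroblasts among 8944 kept barcodes. There were 74 among 2756 in the small intestinal library, or 2.69% (95% exact binomial interval 2.11 to 3.36), and 400 among 6188 in the large intestinal library, or 6.46% (5.86 to 7.11).

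The study's title concerns the exchange between lymphatic vessels and intestinal stem cells. Intestine was digested and 50000 live cells were sorted, with LGR5+ stem cells (50000) and CD31+ PDPN+ LYVE1+ lymphatic endothelial cells (20000 to 25000) enriched. The mice were C57BL/6 and Lgr5-eGFP-ires-CreERT2 on a C57BL/6 background, and no treatment was named for the tissue. Small and large intestine were processed separately, with 1 library each, and the number and age of the animals were not given in the sources used here. Fibroblasts were not a target of the sort, so their share is one of sorted cells rather than of the gut wall. With 1 library per tissue no test was made, and a difference of tissue cannot be told apart from one of library. Brackets hold 95% counting intervals, which cover neither differences between cells nor between animals. The same genes were also read in 4 Visium sections (10 µm thick, on slides with an array of capture spots), 2 technical duplicates per tissue from C57BL/6 mice.

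Fibroblasts of the gut wall lay down collagens and elastic fibres and also send the signals that shape the crypt. Stem cells at the crypt base depend on Wnt ligands and on R-spondins, which amplify Wnt signalling, while bone morphogenetic proteins (BMPs) favour differentiation higher up. Fibroblasts rich in the receptor gene Pdgfra are known as a source of BMPs and of Wnt5a close to the epithelium, whereas deeper CD81+ fibroblasts are known as a source of the BMP antagonist Grem1.

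The label fits markers that the rule did not use, as far as these cells allow a check. In the large intestinal fibroblasts the collagen gene Col1a1 stood at 2102 CPM (UMIs per 1000000 summed UMIs of the set of cells) against 4.25 in all other kept barcodes. Dpt, which codes for the collagen-binding protein dermatopontin, stood at 1917 against 2.98 CPM, and Pdgfra at 355 against 0.315 CPM. The small intestinal values were 3477 against 1.98 CPM for Col1a1, 2282 against 0.754 for Dpt and 508 against 0.811 for Pdgfra. After each cell was thinned at random to 2000 UMIs, which 378 large intestinal fibroblasts reached, 88.1% had a Dpt UMI (84.4 to 91.2) and 93.7% a Col1a1 UMI. Among 1500 sampled other barcodes, which come from deeper cells (median 24049.5 UMIs, fibroblasts 7758), the Dpt share was 0.333%. Counts from the same cells chose the members, so these differences are a description.

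F had a median of 153 UMIs in the small and 181.5 in the large intestinal fibroblasts, far above the threshold. Only 2 and 8 fibroblasts had an F of 10 to 14, and 8 and 11 barcodes fell just outside with an F of 5 to 9. In the large intestine the cells just inside had Dpt at 116 CPM and the epithelial marker Epcam at 666 CPM, and those just outside 44.9 and 1930 CPM. A further 7 and 96 barcodes had an F of at least 10 but as many or more M UMIs, and these were left out by the rule.

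RNA of other cell types was present in some of the fibroblasts. Markers of epithelium, lymphatic and blood endothelium, lymphocytes and plasma cells, myeloid cells and immune cells in general were counted together, and 6 small and 39 large intestinal fibroblasts held 20 or more such UMIs. Those 39 cells had a median of 24194 UMIs and held 77.7% of the marker UMIs of the large intestinal fibroblasts, and the doublet caller Scrublet marked 25 of them. Without them the epithelial list (8 genes, none at 0) went from 1333 to 311 CPM and the myeloid list (7 genes, 1 at 0) from 266 to 24.0 CPM. The immunoglobulin gene Igkc, a plasma cell gene, had a UMI in 394 of the 400 large intestinal fibroblasts, although 3806 of its 6138 UMIs lay in 1 cell. Among the lists whose summed level stood above that of other barcodes, smooth muscle was at 466 against 133 CPM in the small and 324 against 171 CPM in the large intestine, and pericytes were at 668 against 14.2 and 49.5 against 8.08 CPM. In some lists 1 gene gave most of the sum. Gpm6b gave 89.8 of the 110 CPM of the glial list and Ly6c1 held 948 of the 994 blood endothelial UMIs in the large intestine, where 6 of 7 blood endothelial genes were called lower, and Rgs5, a gene of the rule, held 314 of the 367 pericyte UMIs in the small intestine. The libraries shared 25 barcodes, of which 1 was a fibroblast in either and 0 in both.

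The sequences before the start sites of the genes that define the cells and their niche subsets are shown because the results turn on these genes: Col1a2 and Col3a1 chose the fibroblasts, and Pdgfra and Grem1 chose the subsets described further on. Each is the 250 bases before the start site on the gene's own strand, from RefSeq on build GRCm38.p6, with CCAAT or TATAAA in capitals where it occurs on either strand (written ATTGG or TTTATA on the reverse strand).
Col1a2, chr6:4505368-4505617, plus strand: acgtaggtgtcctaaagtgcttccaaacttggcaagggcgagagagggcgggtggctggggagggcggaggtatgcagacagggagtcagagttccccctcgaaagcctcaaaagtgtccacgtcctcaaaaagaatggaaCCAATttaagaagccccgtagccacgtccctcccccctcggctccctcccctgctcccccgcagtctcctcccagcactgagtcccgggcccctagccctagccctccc
Col3a1, chr1:45311288-45311537, plus strand: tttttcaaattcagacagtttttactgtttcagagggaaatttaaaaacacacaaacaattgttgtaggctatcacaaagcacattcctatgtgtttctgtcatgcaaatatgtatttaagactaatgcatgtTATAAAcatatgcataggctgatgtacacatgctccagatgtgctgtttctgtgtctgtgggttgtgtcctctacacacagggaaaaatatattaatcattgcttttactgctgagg
Pdgfra, chr5:75152001-75152250, plus strand: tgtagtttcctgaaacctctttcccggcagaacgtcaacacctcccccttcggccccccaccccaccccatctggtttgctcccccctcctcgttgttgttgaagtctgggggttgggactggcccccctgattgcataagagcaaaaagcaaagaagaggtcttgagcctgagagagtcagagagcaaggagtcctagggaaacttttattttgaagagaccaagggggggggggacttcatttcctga
Grem1, chr2:113758649-113758898, minus strand: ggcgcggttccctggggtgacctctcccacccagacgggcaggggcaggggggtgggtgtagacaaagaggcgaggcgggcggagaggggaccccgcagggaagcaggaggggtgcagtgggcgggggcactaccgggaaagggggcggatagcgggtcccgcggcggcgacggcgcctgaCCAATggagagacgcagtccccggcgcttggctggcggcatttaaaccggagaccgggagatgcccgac
The GC content of these windows was 62% for Col1a2, 35.2% for Col3a1, 54.4% for Pdgfra and 72% for Grem1, against a median of 52.4% over 32851 RefSeq windows of the same length. CCAAT was found 109 bases before the Col1a2 start and 69 bases before the Grem1 start, and 33.8% of all windows hold it on either strand. TATAAA was found 117 bases before the Col3a1 start, and 12.4% of all windows hold it. Neither was found in the Pdgfra window.

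Nearly all matrix genes stood higher in fibroblasts than in the other barcodes. A gene was called when its CPM differed at least 2-fold with the interval's near bound on the same side, among genes with 50 or more UMIs. In the large intestine 22.2% of 14888 genes were called higher in fibroblasts than in the other kept barcodes and 15.4% lower. The members were chosen on this contrast, so nothing is read from the counts. All 16 genes of fibrillar collagens and their assembly were called higher, with a median log2 ratio of 7.65 against 0.15 over all genes tested, as were 15 of 15 elastic and matricellular genes and 13 of 13 basement membrane genes. Col14a1, a collagen that sits on fibril surfaces, had 754 against 0.746 CPM. Eln, the gene of elastin, had 547 against 2.07 CPM, and Lamb1, a laminin chain of basement membranes, 323 against 3.90 CPM. In the small intestine, where 22.3% of 13396 genes were called higher and 11.6% lower, the counts were 16 of 16, 15 of 15 and 10 of 11. Of the matrix proteases and their inhibitors 10 of 12 were called higher in either tissue.

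The genes with the highest ratios outside the rule included several that process matrix. Mrc2, an endocytic collagen receptor, had 266 UMIs in the fibroblasts and 3 in all other kept barcodes of the large intestine, a log2 ratio of 11.66 (10.10 to 13.95). Has1, a hyaluronan synthase, had the same 266 and 3 UMIs. Clec3b, the gene of tetranectin, reached 10.44 (10.20 to 10.70) and Pcolce2, which aids procollagen trimming, 10.34 (9.87 to 10.86). Pdgfra itself was at 10.14 (9.69 to 10.62). Sult1e1, an estrogen sulfotransferase, was at 11.29, but its 274 UMIs came from 13 cells. The others among the 10 highest were C7, Sfrp4, Kcnk2 and Mmp3.

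Signals known from the stem cell niche were found in these cells, both as ligands and as their antagonists. All 6 Wnt ligand genes that could be tested of 8 were called higher than in other large intestinal barcodes, as were 6 of 6 Wnt modulators, 7 of 8 BMP ligands and 6 of 6 BMP antagonists. In the small intestine the counts called higher were 2 of 4, 4 of 4, 4 of 5 and 3 of 3, in the same order, with 0 lower. In large intestinal fibroblasts Wnt5a, a ligand of the noncanonical pathway, had 112 CPM (101 to 123) and Wnt4 104 CPM (93.5 to 115), against 1.32 and 0.669 CPM in the other barcodes. Wnt2b, a canonical ligand, was low at 13.8 CPM, with 49 UMIs in all.

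Among R-spondins, Rspo3 had the most UMIs. It had 103 UMIs, or 29.0 CPM (23.7 to 35.2), in large intestinal fibroblasts and 54 UMIs, or 98.4 CPM (73.9 to 128), in small intestinal ones. Rspo1 had 28 and 18 UMIs, of which 12 of the 18 lay in 1 cell, and Rspo2 had 2 and 13. R-spondins bind receptors of the LGR family, of which Lgr5 marks the stem cells. Of the BMP ligand genes, Bmp2 had 118, Bmp4 146 and Bmp5 132 CPM in large intestinal fibroblasts. Bmp3 was not called (log2 0.76), since other barcodes held it at 12.5 CPM against 21.1. Grem1, which binds BMPs and keeps them from their receptors, had 273 CPM (256 to 290) in the large and 424 CPM (372 to 483) in the small intestinal fibroblasts, against 0.477 and 1.07 CPM in the other barcodes.

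Growth factor genes split between the fibroblasts and the rest. Of 8 EGF, FGF, IGF, HGF and VEGF family genes tested in the small intestine, 4 were called higher and 1 lower. In the large intestine 10 of 13 were called higher and 2 lower. Igf1 had 239 CPM, Fgf7, which acts on epithelial cells, 97.9 CPM, and Nrg1, an EGF-family ligand, 74.8 CPM (66.1 to 84.4). Areg and Hbegf, both EGF-family ligands, were lower in the fibroblasts, at 5.63 against 20.2 CPM and 7.60 against 38.3 CPM. Vegfd, a ligand of the lymphatic receptor VEGFR3, had 53.7 CPM against 0.238 in the other barcodes, and Vegfc, another ligand of that receptor, 27.9 against 3.09 CPM.

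**Figure D1:**
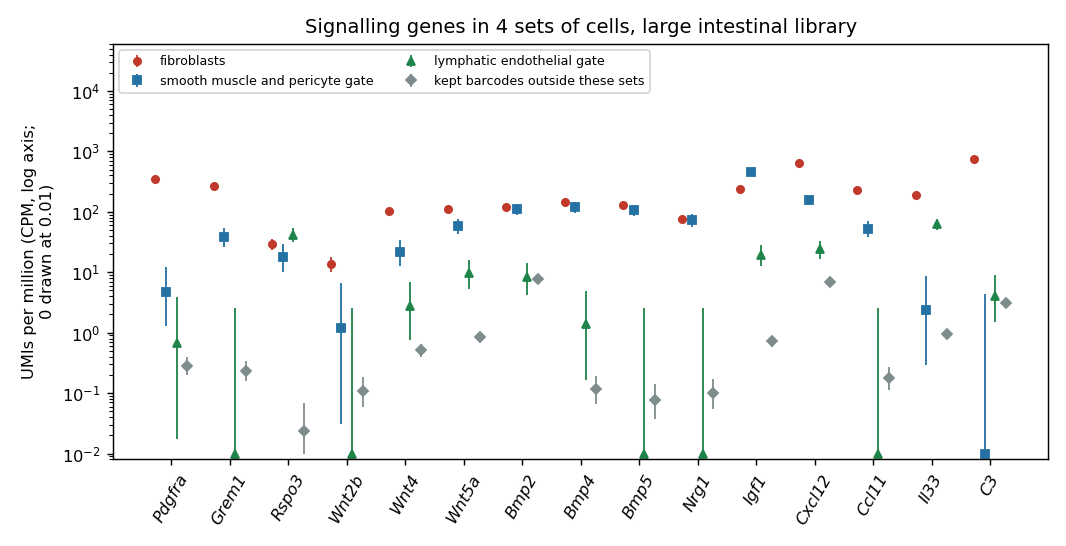
Levels of 15 signalling genes in the large intestinal library, in CPM on a log axis with 95% Poisson intervals, for fibroblasts, the smooth muscle and pericyte set, the lymphatic endothelial set and the kept barcodes outside these sets; a level of 0 is drawn at 0.01. Pdgfra at 355 and C3 at 743 CPM in fibroblasts stand far above all other sets, whereas Bmp2, Bmp4, Bmp5 and Nrg1 lie close to the smooth muscle and pericyte set.

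The fibroblasts were also set against the smooth muscle and pericyte set, kept barcodes with an M of at least 10 that was not below F (119 cells in the large intestine). Of these 119 cells, 96 had an F of at least 10 as well, so most of the set also held the fibroblast genes of the rule. Against this set 10.4% of 8795 genes were called higher in fibroblasts and 6.72% lower, and M and F set this contrast too. Markers of other cells differed as well. Of 4 myeloid genes 4 were called higher (list at 266 against 26.3 CPM), of 7 epithelial genes 4 higher and 0 lower, and of 6 blood endothelial genes 1 higher and 5 lower. Their part was not tested. Pdgfra was at 355 against 4.78 CPM and Col14a1 at 754 against 3.58 CPM. Ackr4, a scavenging chemokine receptor, Pi16, a surface protein of adventitial fibroblasts, and the complement gene C3 had 620, 1216 and 2642 UMIs in the fibroblasts and 0 in the muscle set. Of 10 genes tested from a list of CD81+ and GREM1+ fibroblast genes, 9 were called higher.

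Niche signals as lists were partly higher in fibroblasts than in this set. Of 8 BMP ligand genes 4 were called higher and 1 lower, of 5 Wnt ligand genes 4 and 0, and of 6 BMP antagonists 3 and 0. Several single niche ligands did not separate these cell sets, most of whose muscle set cells also had an F of at least 10. The log2 ratio of fibroblasts over the muscle set was 0.09 for Bmp2 (−0.23 to 0.43), 0.31 for Bmp4 (−0.01 to 0.63), 0.30 for Bmp5 (−0.03 to 0.64), 0.04 for Nrg1 (−0.37 to 0.47) and 0.17 for Fgf7 (−0.20 to 0.55). Adamdec1, a protease gene of the gut's connective tissue, had 1065 and 901 CPM. Genes of the hedgehog response, by which epithelial ligands act on the cells beneath, were lower in fibroblasts: 5 of 8 tested were called lower and 0 higher. Hhip, which binds hedgehog ligands, was at 67.8 against 2168 CPM, Ptch1, their receptor, at 147 against 427 CPM, and the target transcription factor genes Foxf1 and Foxl1 at 84.7 against 223 and 11.5 against 39.4 CPM.

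Lymphatic endothelial cells, the cells enriched by the sort, were taken as kept barcodes outside both sets with at least 5 UMIs of Lyve1, Mmrn1 and Prox1 together (372 small and 229 large intestinal cells). In the small intestine 10.2% of 7045 genes were called higher in fibroblasts and 17.7% lower, and in the large intestine 13.7% of 9433 and 11.2%. Markers of other cells also differed. The myeloid list was at 69.2 CPM in small intestinal fibroblasts against 488 in the lymphatic set, and at 266 against 2181 CPM in the large intestine. All 4 and 5 myeloid genes tested and 7 of 8 epithelial genes in each tissue were called lower in fibroblasts, and their part was not tested. Rspo3 was lower in small intestinal fibroblasts than in the lymphatic set, at 98.4 against 218 CPM and a log2 ratio of −1.15 (−1.58 to −0.74). Wnt2, a canonical Wnt ligand, was at 7.29 against 131 CPM there. In the large intestine Rspo3 was at 29.0 against 41.9 CPM, a difference under 2-fold, and Wnt2 had 78 UMIs against 16, a log2 ratio of 1.00 (0.21 to 1.88). Cxcl12, the chemokine that holds CXCR4+ cells, was higher in fibroblasts in both libraries, at 840 against 60.6 CPM and 644 against 24.0 CPM.

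The fibroblasts carried many signals to immune cells. In the large intestine 14 of 14 chemokine and cytokine genes tested were called higher than in other barcodes, with a median log2 ratio of 4.62, and so were 8 of 9 complement genes. Ccl11, which draws eosinophils, had 230 CPM, Cxcl13, which draws B cells, 93.1 CPM and Il33, an alarmin, 190 CPM. The complement gene C3 had 743 CPM against 3.11, while Cfb, a protease of the alternative pathway, had 40.5 against 46.0 CPM and was not called. Of the markers of the stroma that builds lymphoid tissue, 3 of 5 tested genes were called higher and 0 lower, while Tnfsf11 and Madcam1 had 0 UMIs.

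Early response genes, which many stimuli switch on fast, stood above the other barcodes and cell cycle genes below them. All 12 early response genes were called higher in large and 11 of 12 in small intestinal fibroblasts, with Egr1 at 1140 and 1180 CPM. Against the muscle set 0 of the 12 differed 2-fold, and that set had Egr1 at 1088 CPM. Of 10 cell cycle genes, 9 were called lower in large and 8 in small intestinal fibroblasts. Mki67, present in dividing cells, had 69.5 and 41.9 CPM, from 247 and 23 UMIs. Of these UMIs 209 lay in 27 cells rich in the epithelial gene Epcam (cluster 5, described further on). In the small intestine 14 of the 23 lay in 1 cell.

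Pdgfra was spread over most fibroblasts but at unequal levels. It had a UMI in 324 of 400 large intestinal fibroblasts and in 69 of 74 small intestinal ones. After thinning to 2000 UMIs the shares were 45.5% (40.4 to 50.7) and 65.8% (53.7 to 76.5), against 0% of 113 cells of the large intestinal muscle set (upper bound 3.21%) and 0% of 155 lymphatic cells (2.35%). Thinned counts ranged from 0 to 13 UMIs in the large and from 0 to 15 in the small intestine. Of 378 large intestinal cells, 34 had 3 or more, or 8.99% (6.31 to 12.3). These are called Pdgfra-high below, a range and not a cell type: 48 cells lay just under the threshold with 2 UMIs.

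The 34 Pdgfra-high cells carried more BMP and Wnt5a RNA than the other fibroblasts. Over 7933 genes, 5.23% were called higher and 2.7% lower. Of 9 genes tested from a list of known genes of Pdgfra-high fibroblasts, 7 were called higher and 0 lower, and of 8 BMP ligand genes 5 and 0. Nrg1 was at 432 against 52.6 CPM (log2 3.04, 2.66 to 3.41), Bmp2 at 630 against 86.4 CPM, Wnt5a at 545 against 84.9 CPM and Bmp5 at 461 against 111 CPM. Fgf7 was at 357 against 82.2 CPM. Ednrb, an endothelin receptor, Prex2, a Rac exchange factor, and Procr, the protein C receptor, were also above the rest, at log2 ratios of 2.97, 2.92 and 2.51. Bmp4 did not differ 2-fold (0.39, −0.11 to 0.86), nor did Wnt4 (0.88, 0.36 to 1.36). Markers of other cells differed with this subset: 4 of 7 epithelial, 3 of 4 myeloid, 2 of 2 lymphocyte and plasma cell and 4 of 7 cell cycle genes were called lower, and 2 of 4 smooth muscle genes higher. Their part in the result was not tested.

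Grem1 was concentrated in fewer cells. It had a UMI in 101 of 400 large intestinal fibroblasts, and 12 of these held at least as many of its 969 UMIs as all the others together. After thinning, 67 of 378 cells had a Grem1 UMI, or 17.7% (14.01 to 21.96), against 1.77% of the muscle set and 0% of 1500 other barcodes. In the small intestine 23 of 73 cells did, or 31.5% (21.1 to 43.4). High Pdgfra and Grem1 were not exclusive: 7 cells of the large intestine had both, so that 10.4% of the Grem1-positive and 8.68% of the Grem1-negative cells were Pdgfra-high.

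In the Grem1-positive cells of the large intestine 2.32% of genes were called higher and 7.56% lower than in the other fibroblasts. The list of Pdgfra-high genes gave 0 of 9 higher and 7 lower, and the BMP ligands 0 and 5 of 8. Nrg1 had 0 UMIs against 266, Wnt5a 21.9 against 128 CPM, Bmp2 31.8 against 134 CPM and the chemokine gene Cxcl14 3.98 against 124 CPM. Higher were Rspo3, at 65.6 against 23.2 CPM (log2 interval 0.86 to 2.12), Ackr4, at 364 against 143 CPM, and C3, at 1415 against 634 CPM. Hhip was at 270 against 34.8 CPM and Lepr, the leptin receptor gene, at 406 against 79.1 CPM. Stc2, Angptl1, Foxp2, Prlr, P2ry14 and Serpina3n completed the highest genes, with log2 ratios from 1.86 to 2.97.

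Genes of other cell types were also lower in the Grem1-positive cells, with 7 of 7 epithelial and 4 of 4 myeloid genes tested called lower, as well as 3 of 4 smooth muscle genes. Without the cells that held 20 or more UMIs of other lineages, 84 genes were called higher and 237 lower, in place of 184 and 600. Rspo3 was then at 1.14 and Ackr4 at 1.08 on the log2 scale, Wnt5a at −2.91 and Bmp2 at −2.38, while C3 was at 0.89. The Pdgfra-high cells kept Nrg1 at 3.04, Bmp2 at 2.72 and Wnt5a at 2.45 under the same exclusion. Their Grem1 ratio was 1.11 over all cells and 0.66 without those cells.

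The small intestine gave the same direction for several of these genes in its 23 Grem1-positive cells. There 3.94% of 1775 genes were called higher and 7.89% lower. Ackr4 was at 708 against 119 CPM (2.57, 2.06 to 3.09), Rspo3 at 227 against 52.3 CPM (2.12, 1.28 to 2.98) and C4b, a complement gene, at 687 against 246 CPM. Epithelial markers were lower in these cells too (4 of 4 genes, median log2 ratio −2.37), as were 2 of 3 smooth muscle, 1 of 1 pericyte and 2 of 2 mesothelial genes, and their part was not tested. Adamdec1 was lower in both tissues, at 1085 against 6308 CPM in the small and 250 against 1208 CPM in the large intestine. Ccl11 went opposite ways: it was at 192 against 782 CPM in the small and at 421 against 198 CPM in the large intestinal Grem1-positive cells, and this difference was not tested.

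Cd81 did not set fibroblasts apart. After thinning it was seen in 45.2% of large intestinal fibroblasts (40.1 to 50.4), in 45.1% of the sampled other barcodes and in 38.7% of lymphatic cells, and in 24.7% of small intestinal fibroblasts against 27.8% of other barcodes. The 44 large intestinal fibroblasts above the 75th percentile, which had more than 2 thinned UMIs, were led by macrophage genes. Pf4 was at 448 against 4.14 CPM and the C1q genes C1qa and C1qb at 616 against 9.55 and 524 against 6.37 CPM. These were the RNA of few cells: 159 of 184 Pf4 UMIs lay in 1 cell and 97.7% of C1qa UMIs in cells with 20 or more UMIs of other lineages. When those cells were left out, Pf4 and C1qa were too low for a ratio.

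Other genes of the Cd81-high cells kept their direction without those cells. Over all genes 2.26% were called higher and 6.01% lower, and of 9 genes of the Pdgfra-high list 8 were lower. Adamdec1 was at 57.7 against 1194 CPM and Bmp5 at 13.1 against 147 CPM. Sfrp4, which binds Wnt ligands, was at 113 against 24.2 CPM, Ackr4 at 378 against 150 CPM and Rspo3 at 68.2 against 24.5 CPM. With the doubtful cells left out the log2 ratios were 2.28 for Sfrp4, 1.19 for Ackr4, 1.48 for Rspo3, −6.22 for Adamdec1 and −4.18 for Bmp5. Grem1 did not differ 2-fold (0.53, 0.26 to 0.79), and 9 cells were both Grem1-positive and Cd81-high.

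Clustering on genes outside the rule and the niche lists gave 6 clusters, called here by number and leading genes. Cluster 1 (Pi16, Ifi204 and Prrx1 leading; 190 cells) held 45.25% of the large intestinal fibroblasts, cluster 2 (Edil3, Tnfsf13b, Adam23; 128 cells) 31.75% and cluster 3 (Casq2, Sox6, Col6a4; 70 cells) 16.75%. Clusters 4 (AY761184, Hmcn1, Defa29; 35 cells) and 6 (Stc2, Itln1, Defa22; 24 cells) held only small intestinal cells, 47.3% and 32.4% of that library. Defensin genes and Itln1 are genes of Paneth and goblet cells. In small intestinal fibroblasts 341 of 576 AY761184 and 99 of 188 Defa29 UMIs lay in 1 cell each. Only 3.82% and 3.19% of these UMIs lay in cells with 20 or more UMIs of other lineages. The part of such genes in setting clusters 4 and 6 apart was not tested. Since these clusters come from 1 library, library and cell state cannot be told apart in them. Cluster 5 (Fermt1, Ttr, Rnf186; 27 cells) had a median of 30139 UMIs and Epcam at 1510 CPM, and 24 of its cells held 20 or more UMIs of other lineages.

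The niche genes left out of the clustering differed between clusters. Cluster 3 had Nrg1 at 432, Wnt5a at 587, Bmp2 at 589, Bmp5 at 692 and Pdgfra at 997 CPM, with 0 Grem1 UMIs. Cluster 1 had Grem1 at 540, Ackr4 at 421 and C3 at 1874 CPM, with Nrg1 at 0 and Bmp5 at 1.39 CPM, and its Cd81 level was 861 CPM. Cluster 2 had Grem1 at 183 CPM and in 33.6% of its cells, a share no lower than that of cluster 1, with Cxcl12 at 1343 and Adamdec1 at 2125 CPM. The pair of small intestinal clusters showed a similar split of Grem1 and Adamdec1: Grem1 was at 1393 CPM in cluster 6 and 52.4 in cluster 4, and Adamdec1 at 26.9 and 10547 CPM. The pericyte gene Rgs5 and the muscle gene Acta2, both used by the rule, differed with this split, at 33.6 and 60.6 CPM in cluster 6 and 1168 and 270 CPM in cluster 4, and their part in it was not tested. Rspo3 was at 64.5 CPM in cluster 1, 17.0 in cluster 2, 4.02 in cluster 3, 80.6 in cluster 4 and 155 in cluster 6.

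**Figure D2:**
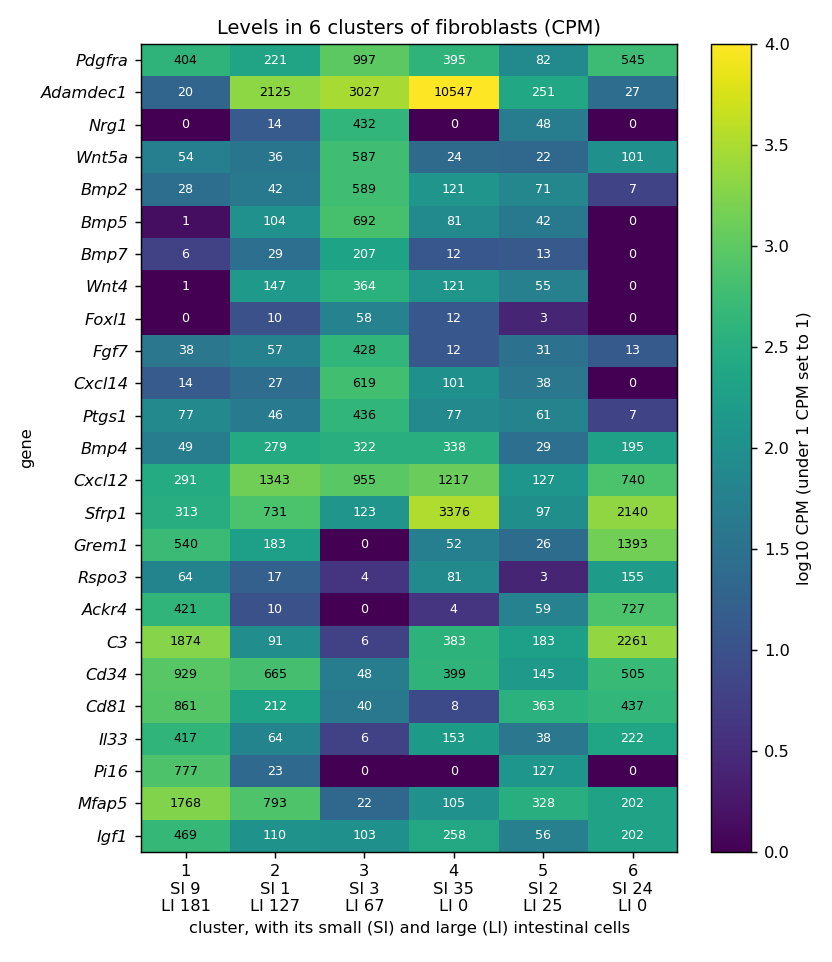
Levels of niche genes that were not used for clustering in the 6 clusters of fibroblasts, in CPM (printed in each cell, colour on a log10 scale), with the number of small (SI) and large (LI) intestinal cells under each cluster. Nrg1, Wnt5a, Bmp2 and Bmp5 have their highest level in cluster 3, where Grem1 is 0, while Grem1 and C3 have theirs in cluster 6 and stand at 540 and 1874 CPM in cluster 1.

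The fibroblasts of the libraries differed in Hox genes and in single genes of several groups. Of 8553 genes, 6.59% were called higher in large intestinal fibroblasts and 4.44% lower. Among 16 fibrillar collagen and assembly genes 0 were called either way, with a median log2 ratio of −0.28 against 0.08 over all genes. Among elastic and matricellular genes 3 were called higher and 1 lower of 15, among basement membrane genes 2 and 0 of 12, and among proteases and their inhibitors 3 and 2 of 11. Of the BMP antagonists 0 of 5 were called, and of the BMP ligands 2 of 8 were called higher. With so few genes in a list, 0 to 4 calls are read as a description only. Dpt differed by −0.25, Col1a1 by −0.73, Igf1 by 0.08 and Il33 by 0.17. Pdgfra (−0.52, −0.71 to −0.32) and Grem1 (−0.64, −0.85 to −0.43) were lower in the large intestine by less than 2-fold.

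Genes higher in large intestinal fibroblasts included growth factor, matrix and intracellular protein genes. Nrg1 had 266 UMIs in 54 of 400 cells and 0 UMIs in 74 small intestinal cells, a log2 ratio of 3.78 when 3 UMIs are taken as the floor, with a lower counting bound of 3.47. Of these UMIs 215 lay in cluster 3, which held 67 large but only 3 small intestinal cells. Fgf7 was at 97.9 against 10.9 CPM (3.16, 2.03 to 4.62) and Postn, which codes for periostin, at 1232 against 120 CPM (3.36, 3.01 to 3.73), with UMIs in 353 and 20 cells. Pi16 was at 342 against 43.7 CPM and Mfap5, a microfibril gene, at 987 against 280 CPM. S100a4, a calcium-binding protein gene, had 421 against 3 UMIs and Stmn2 261 against 3. The Wnt-binding genes Sfrp2 and Sfrp4 had 87 and 121 UMIs against 2 and 1.

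Among genes lower in large intestinal fibroblasts were several of complement, and single genes of Wnt modulation and vitamin A metabolism. Wnt modulators went both ways, with 2 higher and 3 lower of 6, as did retinoid and prostaglandin genes, with 2 and 2 of 8. Lrat, which stores retinol as its ester, had 3 UMIs against 122, and the latter lay in 39 of 74 small intestinal cells (0.844 against 222 CPM). Aldh1a3 and Aldh1a2, which make retinoic acid, were at 36.3 against 211 and 31.8 against 107 CPM. Dkk2, a Wnt modulator, was at 5.07 against 149 CPM (−4.88, −5.71 to −4.13), Sfrp1 at 356 against 2204 CPM and Rspo3 at −1.76 (−2.25 to −1.26). Of 8 complement genes 4 were called lower and 0 higher, with C4b at 90.0 against 366 CPM. Adamdec1 was at 1065 against 4903 CPM. Hmcn1 and Hpse2, which code for a matrix protein and a heparanase-like protein, had log2 ratios of −4.52 and −3.88. Upk3b and Slpi were also among the lowest, but 54 of 54 and 227 of 228 small intestinal UMIs of these genes lay in 1 cell each.

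Several of these genes were read again without the cells that held 20 or more UMIs of other lineages, and those given here kept their direction, whereas Slpi was at 0.080 and Upk3b had no value. Nrg1 was then at 3.67 (floor of 3 UMIs), Postn at 3.40, Pi16 at 2.95, Lrat at −7.75, Dkk2 at −4.79, Sfrp1 at −2.50, Adamdec1 at −2.10 and Rspo3 at −1.52 on the log2 scale. The epithelial list was then at 311 CPM in the large and 240 CPM in the small intestinal fibroblasts, and the lymphocyte and plasma cell list at 799 and 524 CPM. Over all cells the pericyte list was lower in the large intestinal fibroblasts (49.5 against 668 CPM, mostly through Rgs5, which the rule used) and the myeloid list higher (266 against 69.2 CPM, 3 of 4 genes), and so were 3 of 7 cell cycle and 3 of 12 early response genes, and their part in the other differences was not tested. Sult1e1, at 3.40 over all cells, rested on 13 cells of the large and 1 of the small intestine.

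Hox genes, which encode position along the body axis, divided the fibroblasts by tissue. Their RNA was not particular to fibroblasts. Against lymphatic cells 3 of 15 tested Hox genes were called higher and 9 lower in large intestinal fibroblasts, and 1 and 5 of 8 in small. Against all other kept barcodes 7 and 7 of 25 were called higher and lower in the large intestine, and 11 and 0 of 15 in the small. None of the 31 Hox genes examined was at 0 in large intestinal fibroblasts and 11 were at 0 in the small intestinal ones, which held far fewer UMIs (549041 against 3553803), so that a gene with few UMIs in the large intestine, such as Hoxd12 with 2 or Hoxd3 with 4, cannot be compared. Of 12 that could be tested between the fibroblasts of the 2 tissues, 7 were called higher and 3 lower in the large intestine. The Hoxa genes 9 to 13 had 353 UMIs together in the large and 0 in the small intestinal fibroblasts, and the Hoxd genes 9 to 13 had 208 and 0. Hoxa10 alone had 189 UMIs in 137 cells, and Hoxd11 89 UMIs in 71 cells. The Hoxc genes 4 to 8 went the other way, at 168 CPM in the small and 7.32 CPM in the large intestine, and Hoxc8 had 47 UMIs in 21 of 74 small intestinal cells against 10 in 9 of 400 (log2 −4.93, −6.08 to −3.92). Hoxb genes 2 to 8 were at 184 and 82.7 CPM and Hoxa genes of this range at 85.6 and 30.4 CPM. The order by number did not hold throughout, since Hoxc9 and Hoxc10 together were at 21.9 CPM in the small and 8.16 CPM in the large intestine, and Hoxd genes up to 8 at 7.29 and 16.0 CPM. Hoxb13 and Hoxb9, both among the 7 called higher, had 75 against 0 and 61 against 1 UMIs. However, 81.3% and 86.9% of their large intestinal UMIs lay in cells with 20 or more UMIs of other lineages.

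**Figure D3:**
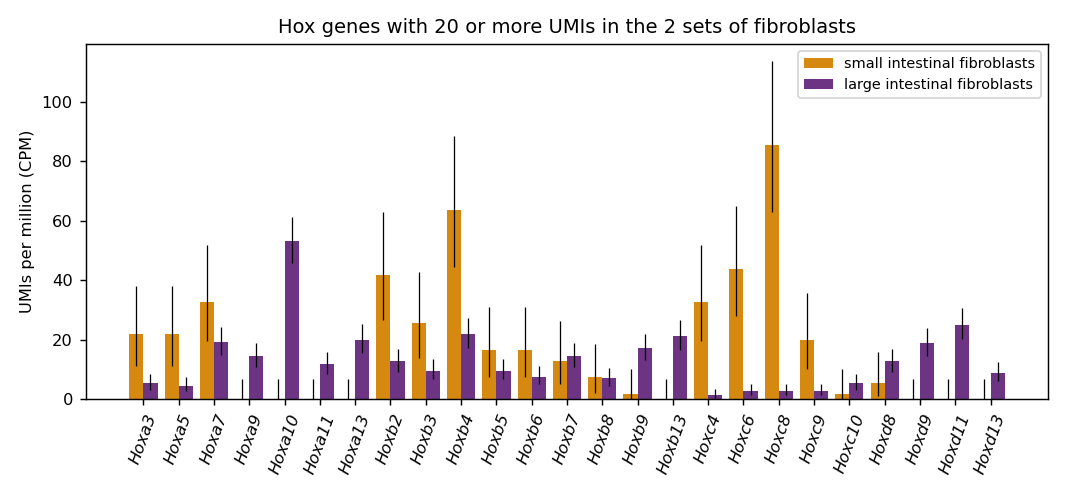
Hox genes with 20 or more UMIs over both libraries, as bars for small (orange) and large (purple) intestinal fibroblasts, in CPM with 95% Poisson intervals. Hoxa10 and Hoxd11 show bars only for the large intestine, with 0 UMIs in the small intestine, and Hoxc8 stands at 85.6 CPM in the small against 2.81 CPM in the large intestine.

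The Visium sections gave the same genes in whole tissue, where fewer cells of a type and less RNA per cell cannot be told apart. The 8 smooth muscle genes were all lower in the large intestinal sections, with a median log2 difference of −2.08, and of 15373 genes 13.5% differed at least 2-fold upwards and 14.9% downwards without overlap of the sections. Dcn was alike, with 194 and 194 CPM for the small intestine and 185 and 182 CPM for the large. Of 47 list genes called higher in large intestinal fibroblasts, 21 were at least 2-fold higher in the large intestinal sections without overlap, 2 were lower and 24 were neither. Of 27 called lower, 14 were lower, 2 higher and 11 neither. These genes include markers of other cells. Called higher in the fibroblasts were 3 myeloid, 2 lymphocyte and plasma cell, 1 general immune, 1 epithelial, 1 red cell and 3 cell cycle genes. Called lower were 2 pericyte, 1 smooth muscle and 1 mesothelial gene. In the sections 5 of 7 myeloid and 5 of 8 lymphocyte and plasma cell genes were higher, and 0 and 1 lower. Their part in these counts was not tested.

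Of the 10 Hox genes called in the fibroblasts, 10 had the same sign in the sections, though Hoxb9 was nearly level there (1.65 in cells and 0.078 in sections). Most large intestinal UMIs of Hoxb9 and Hoxb13 lay in cells with 20 or more UMIs of other lineages. Uncalled Hox genes included some on opposite sides, such as Hoxa3 (−2.03 in cells and 1.44 in sections), Hoxa5 (−2.28 and 0.74) and Hoxb7 (0.17 and −5.13). Hoxa10 had 0.205 and 0.266 CPM in sections of small intestine against 31.8 and 31.5 CPM in those of large intestine. Hoxc8 had 436 and 771 UMIs in the small and 0 in both large intestinal sections. Lrat, Dkk2, Rspo3 and Postn also had the sign seen in the cells. Lrat was at 7.35 and 6.31 against 0.412 and 0.433 CPM, Dkk2 at 5.71 and 9.17 against 0.703 and 0.548 CPM, and Rspo3 at 7.10 and 7.51 against 3.15 and 3.51 CPM. Postn was at 64.1 and 74.2 against 169 and 159 CPM.

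Other genes differed in size or in sign between cells and sections. Nrg1 had 4.35 and 4.09 CPM in sections of small intestine against 4.56 and 4.61 CPM, Fgf7 differed by 0.55 and Sfrp1 by 0.01 on the log2 scale. Hmcn1 was higher by 1.26 and Cxcl13 by 3.12 in the large intestinal sections, against the direction in the fibroblasts. Grem1 had a log2 difference of −2.46 in the sections, at 91.1 and 113 against 19.0 CPM or less, beside −0.64 in the fibroblasts, and small intestinal muscle set cells also held it at 288 CPM (51 UMIs in 19 cells).

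**Figure D4:**
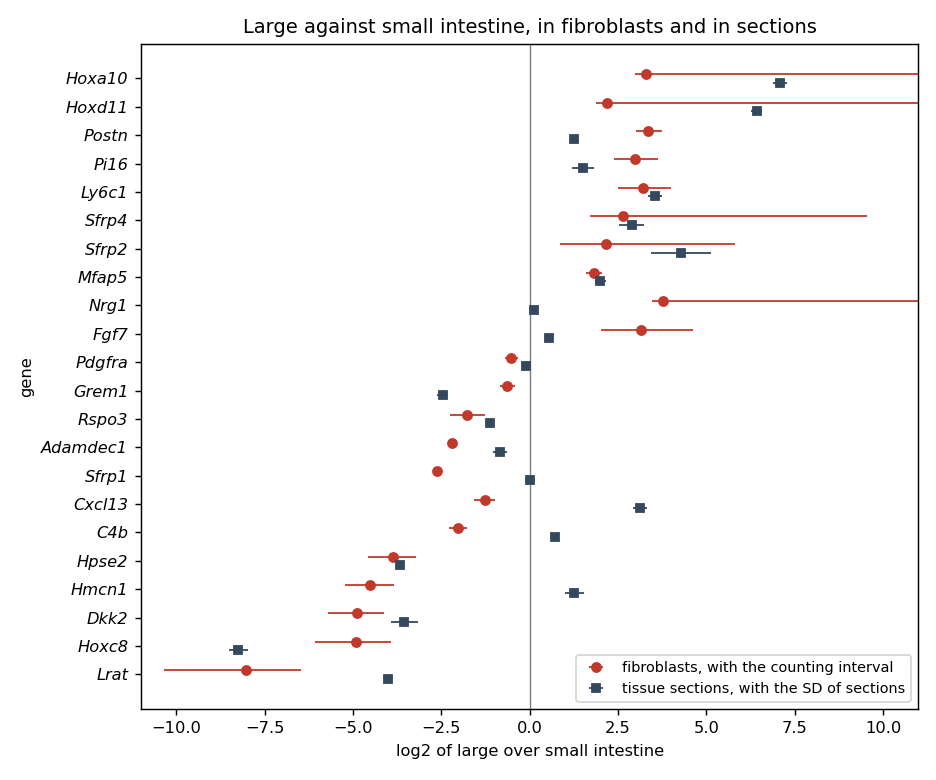
Log2 of large over small intestine for selected genes in fibroblasts (circles, with the 95% counting interval) and in tissue sections (squares, with the SD of sections). Hoxa10 and Hoxc8 stand on the same sides in both, whereas Nrg1 is 3.78 in cells at the floor of 3 UMIs and 0.12 in sections.

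Spots were grouped by muscle and crypt genes, each spot holding several cells. Muscle-rich spots, with 20 or more UMIs of 8 smooth muscle genes after thinning to 2000, numbered 486 and 667 in the small and 369 and 321 in the large intestinal sections. Grem1 was at 383 and 398 CPM in muscle-rich spots of the small intestine against 28.1 and 35.8 in crypt spots, which were not muscle-rich and had at least 1 UMI of 7 crypt genes, and 12.3 and 17.5 in the others. In the large intestine the values were 119 and 114, 13.2 and 13.8, and 7.45 and 6.79 CPM. Rspo3 was at 30.5, 26.8, 22.2 and 23.7 CPM in the muscle-rich spots of the 4 sections and at 2.89 CPM or less in all other spot groups. C3, Ackr4 and Pi16 were also highest in muscle-rich spots in every section.

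Bmp2 and Adamdec1 had other patterns. Bmp2 was at 90.2, 105, 99.0 and 99.0 CPM in spots with neither muscle nor crypt signal and at 35.7 CPM or less in muscle-rich spots. Kept barcodes other than fibroblasts also held Bmp2, at 8.51 CPM in the large intestinal library. Adamdec1 was highest in crypt spots of the small intestine (354 and 327 CPM) and in the remaining spots of the large intestine (147 and 137 CPM). Nrg1 and Foxl1 were low in all spot groups, at 6.67 CPM or less.

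**Figure D5:**
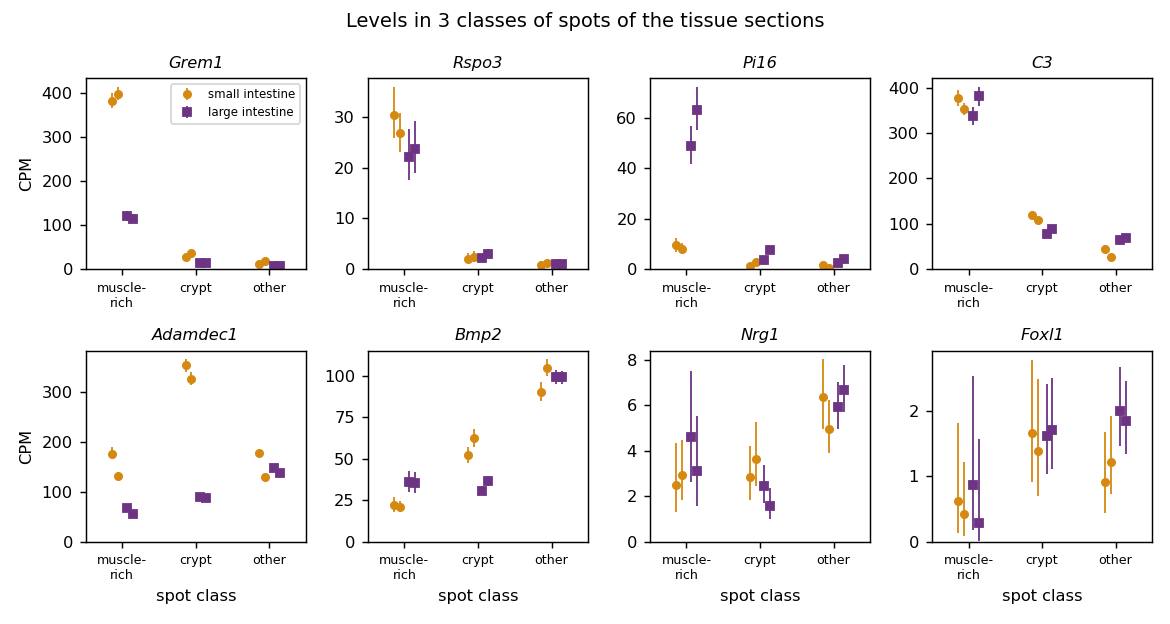
Levels of 8 niche genes in muscle-rich, crypt and other spots of the 2 small and 2 large intestinal sections, in CPM with 95% Poisson intervals. Grem1, Rspo3, Pi16 and C3 are highest in muscle-rich spots in all 4 sections, with Grem1 at 383 and 398 CPM in sections of small intestine against 119 and 114 CPM for large intestine, and Bmp2 is highest in the other spots.

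No fibroblasts were found in the organoid libraries of the series, epithelial cultures at passage 1 grown alone or in coculture. For each of these libraries 100000 epithelial cells were sorted, so an absence of fibroblasts follows from the sort and does not describe the cultures. By the same rule 0 of 540 kept barcodes of the control and 0 of 1037 of the coculture were members, and F came to 0 and 1 UMIs over all of them. The GFP reporter feature was at 0 UMIs in small and 9 UMIs (2.53 CPM) in large intestinal fibroblasts, against 3.73 and 15.1 CPM in the other barcodes.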

How the data were processed

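Single-cell and Visium count matrices were used as deposited: whole UMI counts per gene and barcode or spot, not normalized. Per the file headers they came from Cell Ranger 6.0.1 and Space Ranger 1.2.1, and per the submitters' processing notes the build was mm10. The tissue libraries held 78482770 and 142501907 UMIs and the sections 24356162 to 43833127. Fibroblasts held 549041 and 3553803 UMIs.

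CPM are UMIs per 1000000 UMIs of the summed cells or spots, with exact Poisson intervals. Log2 ratios carry the exact 95% interval of a ratio of Poisson counts, with counts under 3 set to 3. Shares carry Clopper-Pearson intervals and were read after thinning to 2000 UMIs. All intervals cover counting error only. Doublets were scored with Scrublet in scanpy 1.11.5 and kept, and removed as an alternative. Clusters came from 1500 variable genes, 20 principal components, 15 neighbours and the Leiden method at resolution 0.5. Spots with 500 or more UMIs were used. No test was made. The code was tested on simulated data.

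The members and gene lists were chosen with earlier results of these data known. Genes outside the lists were named by rule: the 10 highest against other barcodes (100 or more UMIs), the 8 highest on each side between tissues and in each subset (50 or more UMIs), and 3 leading genes per cluster. Gene names came from the files, and 32158 of 32285 IDs were in a table of gene names. Promoters came from RefSeq on GRCm38.p6.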

Additional observations from a re-analysis of the deposited data

Results flagged for a closer look

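Some genes lay on opposite sides in the small and large intestinal libraries, and with 1 library each the difference was not tested. Ccl11 had a log2 ratio of −2.02 in Grem1-positive over other fibroblasts of the small intestine and of 1.09 in those of the large intestine. Against all other kept barcodes, Hoxa3 in fibroblasts was at 3.97 in the small and −1.37 in the large intestine, and Hoxa5 at 3.79 and −1.06. Hoxb7 was at 1.46 and −1.33, and Hoxb8 at 1.98 and −2.31. Ano1, a chloride channel gene of interstitial cells of Cajal, was at 2.97 and −1.09, but its small intestinal value rested on 6 UMIs in 2 cells. The small intestinal values of Hoxa3, Hoxa5, Hoxb7 and Hoxb8 rested on 12, 12, 7 and 4 UMIs. Of their UMIs in large intestinal fibroblasts, 63.2%, 37.5%, 62.7% and 92% lay in cells with 20 or more UMIs of other lineages.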

How the results depend on the processing

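No paired analysis was possible because each tissue had 1 single-cell library and the sections were technical duplicates. The alternative of fewer than 20 UMIs of other lineages was chosen after seeing the data. The fibroblasts numbered 65 to 82 in the small and 361 to 411 in the large intestine under the other limits on F, M and mitochondrial UMIs, without doublets, and with fewer than 20 such UMIs, and 28 and 53 with fewer than 5.

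Against other barcodes, averaging CPM over cells gave 1911 genes higher in the small intestine (2988 as reported). Cells with fewer than 5 UMIs of other lineages gave 969 lower in the small (1552) and 1405 lower in the large intestine (2298), and between tissues 120 higher and 66 lower (564 and 380), with fewer genes tested. A minimum of 10 UMIs gave 706 lower between tissues. In Pdgfra-high cells a minimum of 2 Pdgfra UMIs gave 229 genes higher (415), and lower were 92 with a minimum of 5, 117 without Scrublet doublets and 111 with fewer than 20 UMIs of other lineages (214). In Grem1-positive cells 103 were higher and 271 lower without doublets, and 84 and 237 with fewer than 20 such UMIs (184 and 600). In Cd81-high cells these were 112 and 302, and 101 and 308 (179 and 477). A resolution of 1 gave 10 clusters.

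Among the values of named genes, 2 of 398 reversed between tissues, 4 of 188 in Grem1-positive, 1 of 203 in Pdgfra-high and 1 of 183 in Cd81-high cells, 1 of 212 against other small and 0 of 360 against other large intestinal barcodes, and 0 of 160 in sections; 38 alternatives gave no value. More moved outside the 95% interval of the reported value (60, 67, 52, 54, 42 and 107 in the same order) or, in sections, by over 1 SD (14). The log2 ratios that reversed were Ly6c1 against other small intestinal barcodes (−0.15, mean of each cell's CPM), Sult1e1 between tissues (−1.07, fewer than 5 UMIs of other lineages), Slpi between tissues (0.080, fewer than 20), Grem1 in Pdgfra-high cells (−0.0027, minimum of 5 UMIs) and Rgs1 in Cd81-high cells (−0.20, without doublets). In Grem1-positive cells Cxcl13 was at −1.08 with 2 Grem1 UMIs, and Hoxb13 at 0.063 by cell means, 0.71 without doublets and 1.21 with fewer than 20 UMIs. The cause was not tested. The 74 small intestinal cells, with 549041 UMIs, limit what can be read there: a gene at 0, such as Nrg1, may be at up to 6.72 CPM.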
